A study of Mus musculus with 2 samples.

Results

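The set described here holds the 789 circular RNAs (circRNAs) that had at least 10 back-splice junction reads in the library labelled ISC, for intestinal stem cells, and none in the one labelled non-ISC. They are 2.51% of the 31496 circRNAs listed for either library and 30.9% of the 2553 circRNAs with at least 10 junction reads in the library labelled ISC. Because these values chose the set, that share describes the choice and nothing is read from it. Of all 18438 circRNAs with any ISC junction read, 76.3% had no non-ISC read, most of them with fewer ISC reads than the minimum. The remaining 1764 circRNAs with at least 10 such reads, all with at least 1 junction read in the other library, are called shared circRNAs below.

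Both libraries came from the intestine of mice of the strain Lgr5GFP-CreERT2, in which GFP marks cells that use the promoter of Lgr5, a receptor of crypt stem cells. The animals were 2 months old, and the cells were separated by flow cytometry into an Lgr5+ fraction (ISC) and an Lgr5- fraction (non-ISC). Each fraction gave 1 library, so no difference here has a replicate check, no p-value is given, and intervals cover counting error only. RNA was depleted of ribosomal RNA and treated with RNase R, an exonuclease that degrades linear RNA, before paired sequencing.

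A circRNA forms when the 5′ splice site at the end of an exon is joined to the 3′ splice site at the start of the same or an earlier exon, which closes the exons between them into a ring. Reads that cross this back-splice junction are the evidence for the ring, since the exons themselves are also in the linear messenger RNA. A host gene can give several rings that share 1 splice site and differ in the other, so a ring missing from a library does not mean that its host is silent there.

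The 8 sequences below are shown because the identity of a member lies in its junction. Each joins the last bases of the donor exon (lower case) to the first bases of the acceptor exon (capitals), 5′ to 3′ on the transcript strand, from GENCODE transcripts of release M21 on GRCm38. They are the most read members with both ends on exon ends and coding sequence on both sides.
Bub1b, exons 17 to 19, chr2:118631759-118635277, plus strand: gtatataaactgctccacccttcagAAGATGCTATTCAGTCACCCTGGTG
Lbr, exons 4 to 7, chr1:181825622-181832232, minus strand: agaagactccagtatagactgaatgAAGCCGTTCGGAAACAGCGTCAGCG
Epsti1, exons 2 to 6, chr14:77927170-77939935, plus strand: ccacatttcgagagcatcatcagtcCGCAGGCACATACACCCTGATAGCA
Arl8b, exons 2 to 6, chr6:108813627-108818613, plus strand: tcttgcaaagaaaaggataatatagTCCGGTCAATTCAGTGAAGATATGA
Zfp426, exons 5 to 7, chr9:20473028-20476478, minus strand: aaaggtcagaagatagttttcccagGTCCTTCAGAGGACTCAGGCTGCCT
Arhgap10, exons 14 to 18, chr8:77344640-77365160, minus strand: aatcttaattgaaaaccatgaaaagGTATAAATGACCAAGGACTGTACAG
Atrnl1, exons 22 to 24, chr19:57751630-57755618, plus strand: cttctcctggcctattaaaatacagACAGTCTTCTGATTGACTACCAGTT
Lin54, exons 3 to 4, chr5:100475689-100480321, minus strand: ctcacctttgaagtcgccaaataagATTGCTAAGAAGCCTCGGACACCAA

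For 3 of these hosts the junctions seen in the library labelled non-ISC are printed in the same way, since they show what the other library held at the same gene. The capitals of the second Bub1b junction and of the Arl8b junction are the same as those of the members above, because these rings use the same acceptor exon with another donor.
Bub1b, exons 16 to 17, chr2:118630945-118631899: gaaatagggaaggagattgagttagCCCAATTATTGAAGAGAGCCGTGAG
Bub1b, exons 17 to 22, chr2:118631759-118639739: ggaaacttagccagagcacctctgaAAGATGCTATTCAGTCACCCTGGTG
Arl8b, exons 2 to 4, chr6:108813627-108815351: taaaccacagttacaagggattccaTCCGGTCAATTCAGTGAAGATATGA
Lbr, exons 9 to 11, chr1:181818840-181820777: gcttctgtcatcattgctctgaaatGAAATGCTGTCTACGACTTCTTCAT

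The library labelled ISC held 156582 junction reads over 18438 circRNAs, and the library labelled non-ISC held 76331 over 12202. At an equal share of each total, 10 ISC reads correspond to 4.87 non-ISC reads and the members' median of 15 reads to 7.31. If a missing entry is a count of 0, it allows up to 3 reads, or 39.3 per 1000000 junction reads, where 10 ISC reads are 63.9. Stem cell and epithelial markers were low or at 0 in the library labelled ISC. Lgr5, Olfm4, Smoc2 and Epcam had 0 ISC reads and 7, 1, 45 and 59 non-ISC reads, and Axin2 had 10 and 29. The 28 stem cell signature genes summed to 345 per 1000000 ISC junction reads and 2555 per 1000000 non-ISC junction reads, with reads for 5 and 13 genes. The 64 T lineage genes summed to 53870 against 3642, with reads for 54 and 28 genes. Satb1 alone held 4292 of the 8435 ISC reads of these genes and 3 of the 278 non-ISC reads. Other T lineage genes ranged widely. Themis had 784 ISC and 2 non-ISC reads, Ikzf1 370 and 13, and Camk4 286 and 0. Few reads fell on Rag1 (22 ISC and 0 non-ISC), Cd4 (7 and 0), Lck (6 and 2) and Zap70 (3 and 2). Fewer cells of a type and less RNA per cell cannot be told apart in such libraries, and the part of cell makeup in any value below was not tested.

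Most members were thinly read. Their ISC junction reads ran from 10 to 630, with a median of 15 and quartiles of 11 and 20, and 135 of them had exactly 10. The shared circRNAs had a median of 23 ISC reads and 9 non-ISC reads. Members held 17783 of the 156582 ISC junction reads, or 11.4% (exact binomial 95% interval 11.2 to 11.5). The 15 most read, on 14 hosts, held 3521 of these, or 19.8%. Just outside the rule lay 147 circRNAs with 9 ISC reads and no non-ISC read, and 103 with at least 10 ISC reads and a single non-ISC read.

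The share of circRNAs that were members fell with read number. It was 42.7% (40.0 to 45.4) of the 1344 circRNAs with 10 to 19 ISC reads and 22.8% (19.8 to 25.9) of the 760 with 20 to 49. Of the 251 with 50 to 99 reads 27 were members, or 10.8% (7.21 to 15.3). Of the 198 with 100 or more, 15 were members, or 7.58% (4.30 to 12.2). The lowest range held 574 of the 789 members. Both values are those of the rule, so these shares only describe the set.

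**Figure D1:**
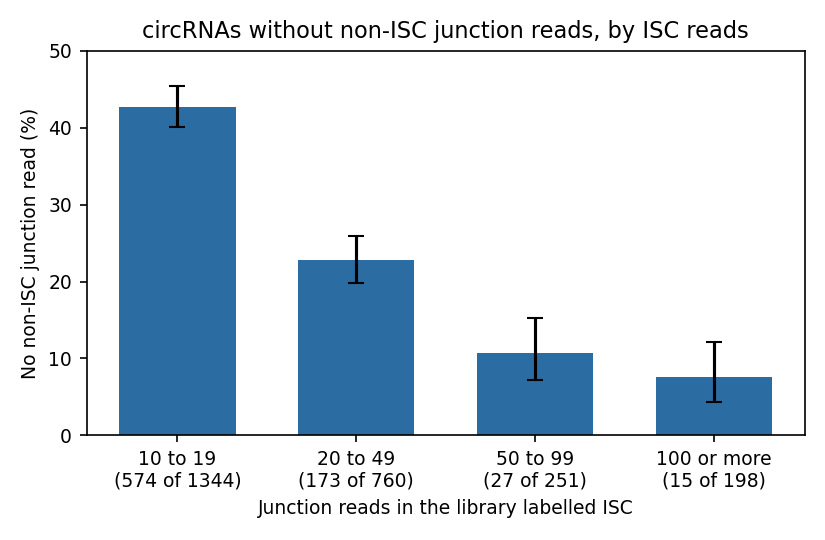
Share of circRNAs, in percent, that had no non-ISC junction read, by range of ISC junction reads, with exact binomial 95% intervals as bars. The share is 42.7% at 10 to 19 reads and 7.58% at 100 reads or more.

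Of the 789 members, 658 (83.4%) had no entry for the library labelled non-ISC and 131 (16.6%) had an entry with 0 junction reads. In those 131 entries the deposited count, a second column of reads assigned to the circRNA, ran from 1 to 754 with a median of 17, and it was at least 10 in 97 of them. Ptpn14, a tyrosine phosphatase that binds YAP, was the most read of this kind, with 149 ISC junction reads and a non-ISC count of 29. The entries of Arpp21, an RNA-binding phosphoprotein, held 61 ISC junction reads and a non-ISC count of 12. For Acbd6, an acyl-CoA binding protein, the values were 47 and 16, for Mad1l1 48 and 4, and for the calcium channel subunit Cacna1e 44 and 2. For these members the non-ISC entry thus held a count above 0 and a junction count of 0.

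The most read member was a ring of Bub1b, which encodes the spindle checkpoint kinase BubR1. It had 630 ISC junction reads and 0 non-ISC reads, and it held 92.8% of the host's 679 ISC reads. The library labelled non-ISC had 55 reads on 5 other Bub1b rings. Of these, 41 lay on exons 16 to 17, which had 0 ISC reads, and 8 on exons 17 to 22, which had 15. The acceptor of exon 17 was thus used in both libraries, and the donor of exon 19 had no back-splice read in the library labelled non-ISC. A second member on Bub1b, with 14 reads, starts 3 nt further in than the first and ends at the same base.

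Rings of Lbr, the lamin B receptor of the inner nuclear membrane, also had 1 leading ring. The member on exons 4 to 7 had 389 ISC reads, 88.4% of the host's 440, and a second on exons 4 to 5 had 10. The host had 5 non-ISC reads, 4 of them on exons 9 to 11, where there were 10 ISC reads. For Arl8b, a small GTPase that moves lysosomes along microtubules, the member held all 230 ISC reads of the host. All 11 non-ISC reads lay on exons 2 to 4, where there were 0 ISC reads. At Arl8b the libraries thus used the same acceptor with different donors.

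**Figure D2:**
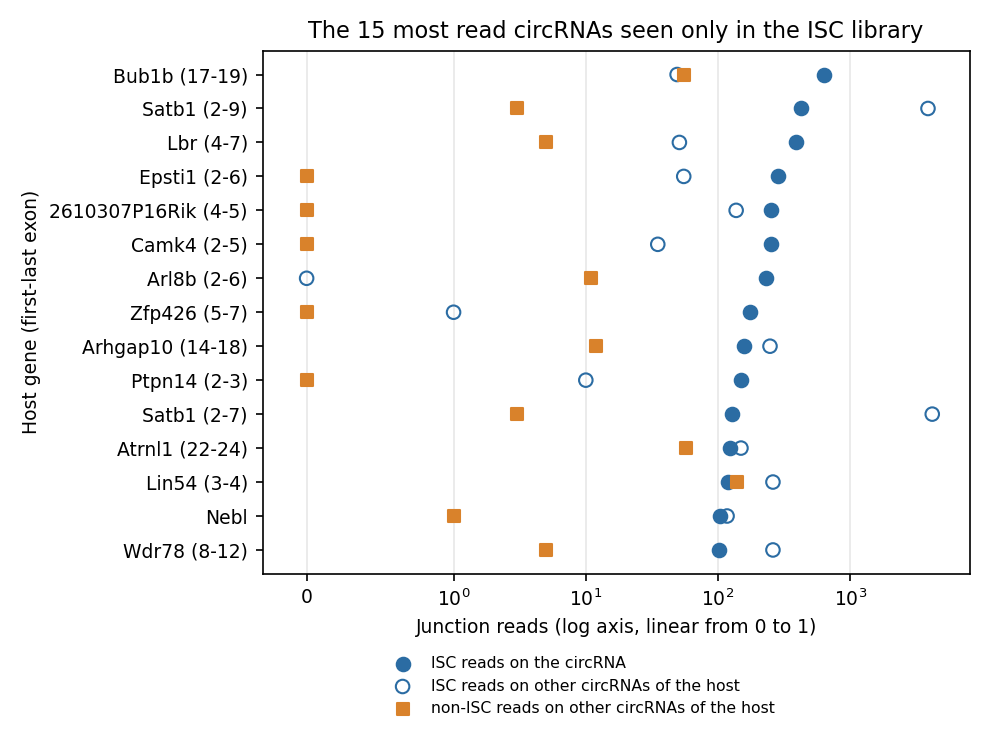
ISC junction reads of the 15 most read members, beside the non-ISC junction reads of other circRNAs of the same host. Lin54 and Atrnl1 have 140 and 57 such non-ISC reads, and Epsti1, Camk4, Zfp426 and Ptpn14 have 0.

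Atrnl1, which encodes an attractin-like membrane protein, had 2 members starting at exon 22, which end at exon 24 (124 ISC reads) and exon 26 (26 ISC reads). The ring from the same exon to exon 25 had 61 ISC and 7 non-ISC reads. Another Atrnl1 ring, on exons 2 to 9, had 18 ISC and 21 non-ISC reads. Lin54, the DNA-binding subunit of the MuvB core that regulates cell cycle genes, had a member on exons 3 to 4 with 118 ISC reads. The ring on exons 2 to 4 shares its donor and had 192 ISC and 99 non-ISC reads. A single-exon ring on exon 2 of Lin54 was also a member, with 10 reads.

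Wdr78, a WD repeat protein of ciliary dynein, had a member on exons 8 to 12 with 102 ISC reads. The ring on exons 8 to 15 shares its acceptor and had 78 ISC and 2 non-ISC reads. Zfp426, a zinc finger protein, had 174 ISC reads on its member out of 175 for the gene, and 0 non-ISC reads. The deposited ISC counts of the Arl8b and Zfp426 members, 447 and 302, were well above their junction reads. The 2 most read members of Nebl, which encodes the actin-binding protein nebulette, had 104 and 89 ISC reads. Only 1 end of each lay on an annotated exon end, and the host had 1 non-ISC read.

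Across all members, the host was usually seen in the other library. The 777 members with a host name came from 613 genes, 40.1% of the 1527 hosts with a circRNA of at least 10 ISC reads. Of the 613, 502 gave 1 member, 86 gave 2, 13 gave 3 and 12 gave at least 4. For 462 of the 613 hosts (75.4%, 71.8 to 78.7) other circRNAs had non-ISC junction reads. A further 88 (14.4%) had only non-ISC entries with 0 junction reads, and 63 (10.3%) had no non-ISC entry. The hosts with reads had a median of 11, and 253 of the 613 had at least 10. Their other rings held 14625 reads, or 19.2% of all non-ISC junction reads.

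Counted by circRNA, 76.6% of members (73.4 to 79.5) and 87.7% of shared circRNAs (86.1 to 89.2) had a host with non-ISC reads on other circRNAs. The shares were 76.4% and 87.6% at 10 to 19 ISC reads, 76.2% and 87.7% at 20 to 49, 88.5% and 85.1% at 50 to 99, and 66.7% and 91.3% at 100 or more. At least 1 junction end of the member was used by a non-ISC ring for 48.0% of members (44.5 to 51.6) and 66.4% of shared circRNAs (64.1 to 68.6). Both ends were used, in other combinations, for 8.37% and 19.05%. From the lowest to the highest range of reads, the shares for at least 1 end were 46.3% and 63.4%, 50.9% and 66.1%, 63.0% and 66.5%, and 53.3% and 79.8%. Both sets were split by non-ISC reads, the readout these shares also use, so the shares are a description and their difference was not tested.

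Members included both leading and minor rings of their host. The median member held 29.8% of its host's ISC reads, against 46.7% for shared circRNAs. The medians were 27.8% and 32.7% at 10 to 19 reads, 33.2% and 47.4% at 20 to 49, 33.5% and 61.5% at 50 to 99, and 64.9% and 76.3% at 100 or more. For 386 of the 777 members (49.7%) no other ring of the host had more ISC reads. In 549 of the 613 hosts (89.6%) other rings were present in the library labelled ISC, with 50772 reads. In the other 64 hosts (10.4%) all ISC reads lay on members. The hosts with the most non-ISC reads on other rings carried members with few reads. Rasa2, a GTPase-activating protein for Ras, had a member of 13 reads beside 996 non-ISC reads on 9 other rings. Smad4, the common mediator of TGF-beta signals, had a member of 19 reads beside 368, and Dennd1b, an exchange factor for Rab35, 10 beside 346. Tbc1d14, a regulator of endosome and autophagosome traffic, had 10 beside 343, and Nfix, a nuclear factor I protein, 10 beside 304. These members were 0.567% to 4.92% of their host's ISC reads.

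At the other end, some hosts had no non-ISC junction read at all. Epsti1, an interferon-induced gene, had members on exons 2 to 6 and 2 to 9, with 285 and 35 ISC reads. The RIKEN-named transcript 2610307P16Rik had 5 members with 253, 25, 20, 16 and 10 reads. Camk4, the calcium- and calmodulin-dependent kinase IV of thymocytes and neurons, had 2 with 251 and 24. These hosts had 340, 390 and 286 ISC reads and 0 non-ISC reads. For Ptpn14 the host totals were 159 and 0, but its member had the non-ISC entry without junction reads described above.

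Hosts with several members show how the rings were laid out. At Mad1l1, which encodes the MAD1 protein of the spindle checkpoint, 7 members with 10 to 48 reads each summed to 187. Those 6 with both ends on exon ends lay between exons 12 and 17. The 3 Mad1l1 rings with non-ISC reads lay between exons 5 and 10, and the one on exons 5 to 9 had 113 ISC and 16 non-ISC reads. Among these rings, those with non-ISC reads and the members did not overlap in exons. Of all 789 members, 58.7% overlapped another ring with non-ISC reads by coordinates, so a lack of overlap is not particular to Mad1l1. A further 20 Mad1l1 rings, each under 10 ISC reads and with 63 in all, had no non-ISC read.

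Arhgap10, which encodes a GTPase-activating protein, had 5 members with 158, 73, 25, 18 and 10 reads. Of these, 3 end at the donor of exon 18 and start at exons 12, 14 and 16. The ring from exon 15 to that donor had 24 ISC and 3 non-ISC reads. Itpr2, an inositol trisphosphate receptor of the endoplasmic reticulum, had 5 members with 12 to 42 reads, all between exons 49 and 55. Of its 9 rings with non-ISC reads, 8 lay between exons 3 and 26. The other, on exons 46 to 51, had 0 ISC reads and 1 non-ISC read and overlaps the stretch of the members. Ets1, a transcription factor of lymphocytes, had 4 members with 72, 49, 34 and 29 reads on exons 2 to 6 and no non-ISC read. Sh3kbp1, an adaptor that binds the ubiquitin ligase Cbl, had 6 members with 11 to 63 reads between exons 3 and 18. It had 244 ISC reads and 0 non-ISC reads in all.

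**Figure D3:**
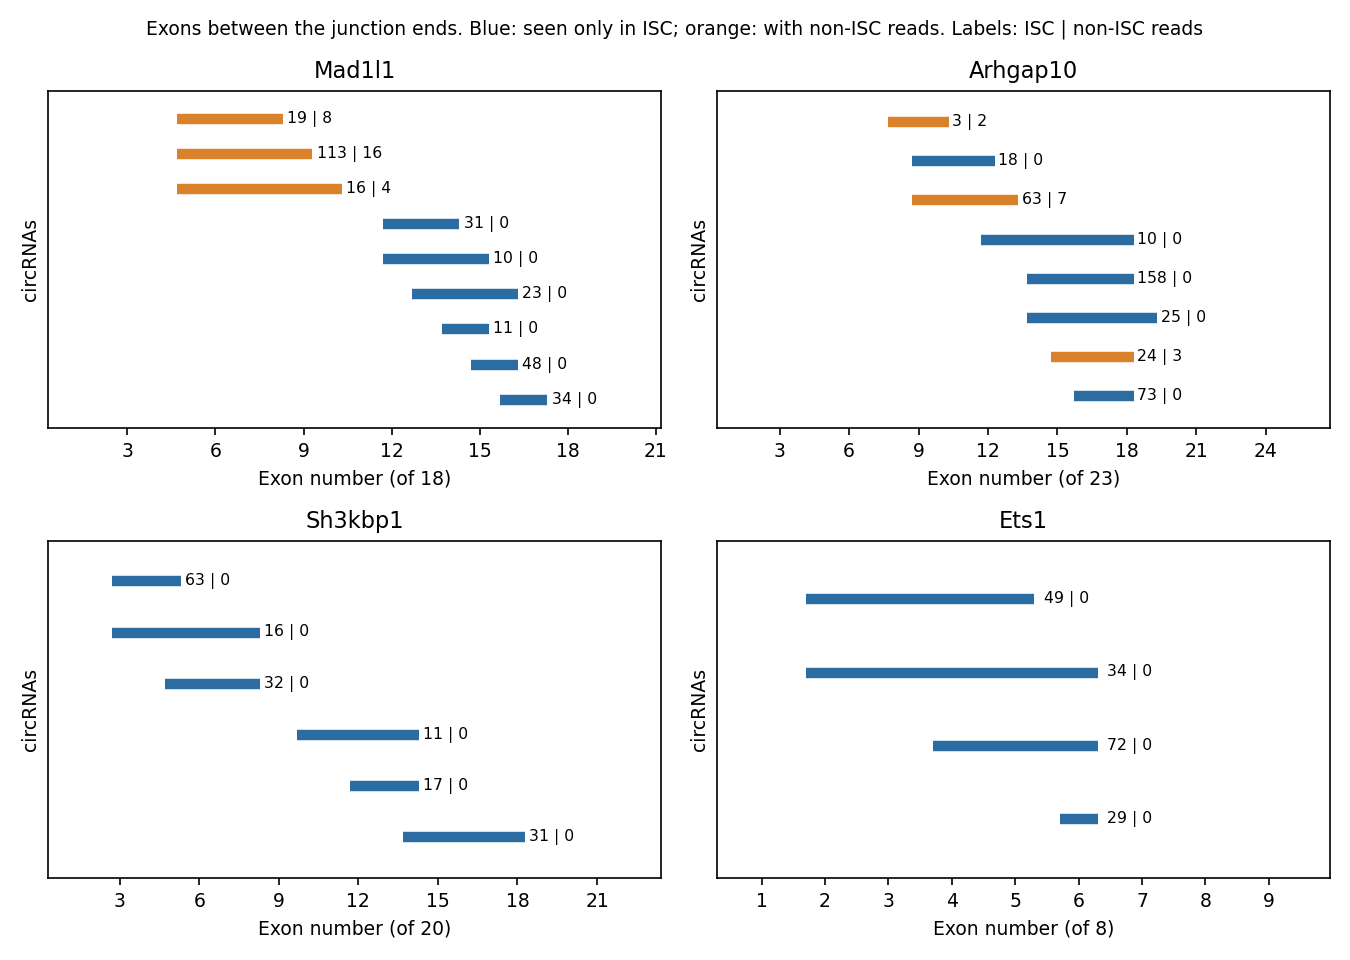
Exons spanned by the rings of Mad1l1, Arhgap10, Sh3kbp1 and Ets1, numbered along the transcript, with members in blue, rings with non-ISC reads in orange, and the ISC and non-ISC junction reads beside each. Mad1l1 members lie at exons 12 to 17 and its rings with non-ISC reads at exons 5 to 10; the 1 Mad1l1 member off exon ends is not drawn.

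Bbs9, a subunit of the BBSome that carries cargo in cilia, had 4 members with 43, 17, 17 and 16 reads. The rings on exons 13 to 16 and 13 to 17 were members, and exons 13 to 18 had 39 ISC and 10 non-ISC reads. Kansl1l, a relative of the histone acetylation factor Kansl1, had 6 members with 10 to 60 reads, and 3 Kansl1l rings starting at exon 2 had 13 non-ISC reads together. Atp9b, a P4-type ATPase, had 4 members, the most read with 97 reads, beside 152 non-ISC reads on other rings, 110 of them on exons 2 to 4. Ankrd44, an ankyrin repeat subunit of protein phosphatase 6, had 4 members with 37, 23, 22 and 10 reads and 2 non-ISC reads.

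The hosts were grouped by 20 gene lists, and 313 members (39.7%) on 231 hosts (37.7%) fell in at least 1. For each list the count of members is read against the 30.9% of all circRNAs with at least 10 ISC reads. No list was tested, and a host can be in several lists. Membership is set by the rule, and the lists were chosen with earlier results of these data known, so these shares only describe the set.

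Hosts of the T lineage list, genes of T cell receptor signalling and thymocyte transcription, gave 41 members out of 66 circRNAs with at least 10 reads, or 62.1% (49.3 to 73.8). They lay on 18 of 24 hosts, and 26 of the 41 had a host with non-ISC reads elsewhere. Their median was 19 reads. Satb1, a chromatin organiser of thymocytes, gave 8 members with 751 reads. These were 426, 128, 81, 46, 23, 19, 16 and 12. They are a small part of the 4292 ISC reads of Satb1, since the ring on exons 2 to 5 had 3462 ISC and 3 non-ISC reads and so is not a member. The member on exons 2 to 9, at chr17:51767892-51809287, uses the same acceptor as that ring. Without Satb1 the set holds 781 circRNAs.

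Ikzf1, the zinc finger protein Ikaros, gave 6 members with 122 reads beside 13 non-ISC reads on other rings. Of the members, 3 start at exon 2, with 56, 17 and 16 reads. Runx1, a core-binding factor of blood cells, gave members of 53 and 26 reads, with 1 non-ISC read on another ring. Of hosts chosen after their values were seen, Arpp21 gave 3 members (61, 40 and 19), Themis 3 (40, 25 and 10) and Myb 1 (67). Themis, a T cell receptor signalling protein of thymocytes, had 634 ISC reads and 1 non-ISC read on its exon 4 ring. Also chosen after their values were seen, Dntt, the template-free polymerase of antigen receptor joining, gave 2 members with 26 reads together. Single members came from the T cell surface genes Cd8b1 (13 reads) and Cd3g (11), and neither had a non-ISC read.

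Hosts of the list shared by leukocytes gave 16 members out of 26, or 61.5% (40.6 to 79.8), on 8 hosts, and 6 of the 16 are the Ikzf1 rings already counted. Fyb, an adaptor of T cell and platelet adhesion, had 38, 17 and 10 reads on its members and no non-ISC read. Dock2, the Rac activator of lymphocyte migration, gave 2 members with 26 reads, beside 5 non-ISC reads elsewhere. T lineage and leukocyte hosts together made up 51 of the 789 members (6.46%) and 2007 of the 17783 member reads (11.3%). Most members thus had hosts outside these lists. B lineage hosts gave 1 member of 4, on Aff3 (32 reads), and myeloid hosts 1 of 1, on the mannose receptor Mrc1 (17 reads). Stromal and endothelial hosts gave 2 of 3, both on the adhesion molecule Pecam1, which is also on leukocytes, with 32 reads.

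A further 12 members had no host name in the files, and 3 of them lay at the T cell receptor beta locus, whose J segments are spliced to a constant gene, Trbc1 or Trbc2, in the receptor's messenger RNA. All 3 joined the start of Trbc1 exon 1, at chr6:41538218, to the end of a J2 segment that lies after Trbc1 in the genome. The junctions are printed because they look like back-splices on the map and are also the letters of a J segment followed by the first bases of a constant exon, with the J segment in lower case and the constant exon in capitals.
Trbj2-3, chr6:41538218-41543271, plus strand: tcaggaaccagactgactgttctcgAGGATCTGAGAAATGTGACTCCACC
Trbj2-5, chr6:41538218-41543501, plus strand: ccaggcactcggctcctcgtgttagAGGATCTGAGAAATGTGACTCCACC
Trbj2-7, chr6:41538218-41543856, plus strand: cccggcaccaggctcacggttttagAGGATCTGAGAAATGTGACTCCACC

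These members had 15, 18 and 18 ISC junction reads and no non-ISC read. The deposited ISC count of the third was 305, well above its junction reads. Junctions of the same start with Trbj2-2 and Trbj2-4 had 9 and 6 reads, under the minimum. The first 259 bases of Trbc1 exon 1 are identical to those of Trbc2 exon 1, which follows the J2 segments, and 374 of its 375 bases are equal. A back-splice to Trbc1 and a forward splice to Trbc2 therefore have the same letters at the junction and cannot be told apart here. Of the other hostless members, the most read had 94 reads at chr15:95736513-95737296, with 1 end on an exon of Gm49169. Another, with 19 reads, lay on exons of Srcap, a chromatin remodelling ATPase, at chr7:127552259-127553294.

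No member lay on a host of the epithelial lists. The stem cell signature had 2 circRNAs with at least 10 ISC reads and the epithelial junction list 4, and all 6 had non-ISC reads. Their intervals for the share of members, 0 to 84.2% and 0 to 60.2%, both include 30.9%, so no lack of members is shown. Enterocyte genes had 16 ISC and 3200 non-ISC reads, of which Btnl1 alone held 0 and 2421. Genes of goblet, Paneth, endocrine and tuft cells had 14 and 95. Neither list had a circRNA of at least 10 ISC reads, so neither could hold a member.

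**Figure D4:**
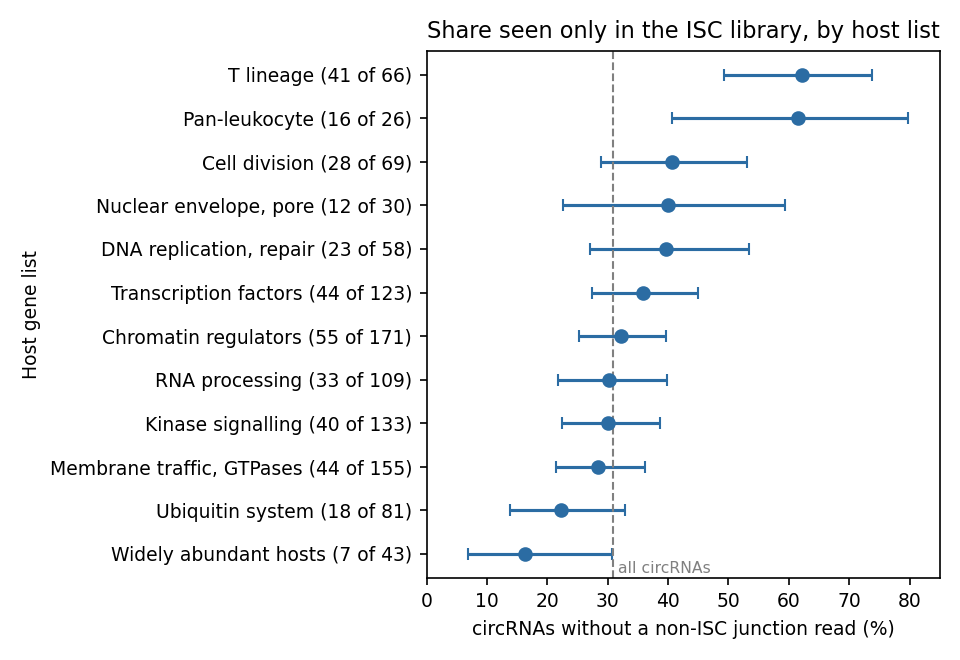
Percent of the circRNAs with at least 10 ISC junction reads that are members, by gene list of their hosts, with exact binomial 95% intervals. Only lists with at least 26 such circRNAs are drawn. The line marks 30.9%, the share over all circRNAs with at least 10 ISC junction reads. The T lineage (62.1%) and leukocyte (61.5%) intervals lie above the line, and that of widely abundant hosts (16.3%) ends at 30.7%, just under it. Membership is set by the rule, so the shares only describe the set. Rings of 1 host are counted separately, and 8, 6 and 4 of the 41 T lineage members are on Satb1, Ikzf1 and Ets1.

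Hosts of cell division gave 28 members of 69, or 40.6% (28.9 to 53.1), an interval that includes 30.9%. They lay on 17 hosts, and 25 of them had a host with non-ISC reads. Besides Bub1b and Mad1l1, Casc5, the kinetochore scaffold also called Knl1, gave members of 77 and 24 reads. The ring on exons 9 to 11 shares its acceptor with the 77-read member on exons 9 to 12 and had 132 ISC and 33 non-ISC reads. Top2a, the topoisomerase of dividing cells, gave 2 members with 32 reads beside 19 non-ISC reads. Apart from Bub1b, Mad1l1 and Casc5, no cell division host had over 32 member reads.

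Hosts of DNA replication and repair gave 23 members of 58, or 39.7% (27.0 to 53.4), with a median of 11 reads. Atad2, a bromodomain ATPase, gave 2 with 36 reads beside 10 non-ISC reads. The primase subunit Prim2 gave 1 with 26 beside 8. Rad52, a recombination protein, gave 1 with 23 reads, where the host had 29 ISC and 139 non-ISC reads in all.

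Chromatin hosts gave most members by number, 55 of 171, or 32.2% (25.2 to 39.7), which is near the background. For 54 of the 55 the host had non-ISC reads elsewhere. After Satb1, the most read hosts were Suz12 with 51 reads on 2 members, Mllt10 with 36 on 2 and Eed with 30 on 1. Suz12 and Eed are core subunits of Polycomb repressive complex 2, and Mllt10 binds the histone methyltransferase Dot1l. The Suz12 members lay on exons 9 to 10 (31 reads) and 11 to 13 (20 reads), and its other rings had 10 non-ISC reads. Chosen after their values were seen, other Polycomb complex genes gave 1 member each, Phf19 with 15 reads, Ezh2 with 14 and Jarid2 with 10.

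Transcription factor hosts gave 44 members of 123, or 35.8% (27.3 to 44.9), led by Satb1, Ets1, Ikzf1 and Runx1. Hosts of the nuclear envelope and pore gave 12 of 30, or 40.0% (22.7 to 59.4), and all 12 had a host with non-ISC reads. Beyond Lbr, the hosts with most member reads were transport receptors, the exportin Xpo1 (30 reads on 2 members) and the importins Ipo11 (29 on 2) and Ipo5 (29 on 1). Membrane traffic and small GTPase hosts gave 44 of 155, or 28.4% (21.4 to 36.2). After Arhgap10 and Arl8b, the SNARE protein Stx6 gave 2 members with 75 reads, beside 171 non-ISC reads. Arhgap26, another GTPase-activating protein, gave 1 with 53, beside 170.

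Kinase and signalling hosts gave 40 of 133, or 30.1% (22.4 to 38.6). After Camk4, Ppp2r5c, a regulatory subunit of protein phosphatase 2A, gave 3 members with 58, 17 and 15 reads, and its ring on exons 3 to 9 had 17 ISC and 8 non-ISC reads. The protein kinase C gene Prkcb gave 3 with 68 reads in all, and the tau tubulin kinase Ttbk2 gave 1 with 47. RNA processing hosts gave 33 of 109, or 30.3% (21.8 to 39.8). Strbp, a dsRNA-binding protein, had members of 98, 69 and 11 reads, beside 12 non-ISC reads. Fip1l1, of the polyadenylation complex, gave 46 reads on 2, the deadenylase subunit Pan3 45 on 1 and the deadenylase Cnot6l 36 on 2.

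Ubiquitin hosts gave 18 of 81, or 22.2% (13.7 to 32.8), with a median of 12 reads, and all 18 had a host seen in the other library. The ligase Trim24 gave 28 reads on 2 members, Rnf169 27 on 1, the deubiquitinase Usp3 24 on 2 and the substrate receptor Fbxw7 22 on 1. For Rnf169 and Usp3 the other rings had 186 and 133 non-ISC reads, more than the 39 and 87 ISC reads of the whole host. The interferon list gave 3 of 6, of which 2 were on Epsti1 and 1 on the HERC-type ligase Herc6 (11 reads). A list of hosts known for abundant rings in many tissues gave 7 of 43, or 16.3% (6.81 to 30.7), below 30.9%. With a minimum of 20 reads it was 16.1%, beside 17.8% over all circRNAs. These were on Pan3, Fbxw7, the ubiquitin-associated protein Ubap2 (41 reads on 2), the splicing regulator Mbnl1 (20 on 1), and Ubxn7 and Birc6.

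In their structure members were ordinary exonic rings. Both ends lay on exon ends of 1 transcript for 719 members (91.1%) and for 93.2% of shared circRNAs. In 13 members the ends lay on exons of different transcripts, in 45 only 1 end was on an exon end, and in 12 neither was. The 3 shortest members, in Arhgap20 (180 nt, 10 reads), Tcf7 (194 nt, 12 reads) and Aph1a (207 nt, 10 reads), had neither end on an exon end.

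Members spanned a median of 6273 nt of the genome (quartiles 2753 and 15229), and shared circRNAs 5820 nt (2259.5 and 12438). The medians were 5867.5 and 5808.5 nt at 10 to 19 reads and 6940 and 6107 nt at 20 to 49. At 50 to 99 reads, with 27 members, they were 9168 and 5477 nt, and at 100 or more, with 15 members, 12046 and 5619 nt. The gap in span was thus seen among the more read members. The longest members spanned 93856 nt in Rere, a nuclear receptor co-regulator (13 reads), 91803 nt in Jarid2 (10 reads) and 80909 nt in Camk4 (24 reads). The median spliced length was 392 nt (308.5 and 586) for members and 433.5 nt (339 and 606) for shared circRNAs, and both had a median of 3 exons. Members had the lower median spliced length at 10 to 19 reads (389.5 and 432 nt) and 20 to 49 reads (404 and 442 nt), and the higher at 50 to 99 (447.5 and 435 nt) and 100 or more (437.5 and 403 nt). Over all reads, the quartiles of both sets overlap widely in span and in spliced length.

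**Figure D5:**
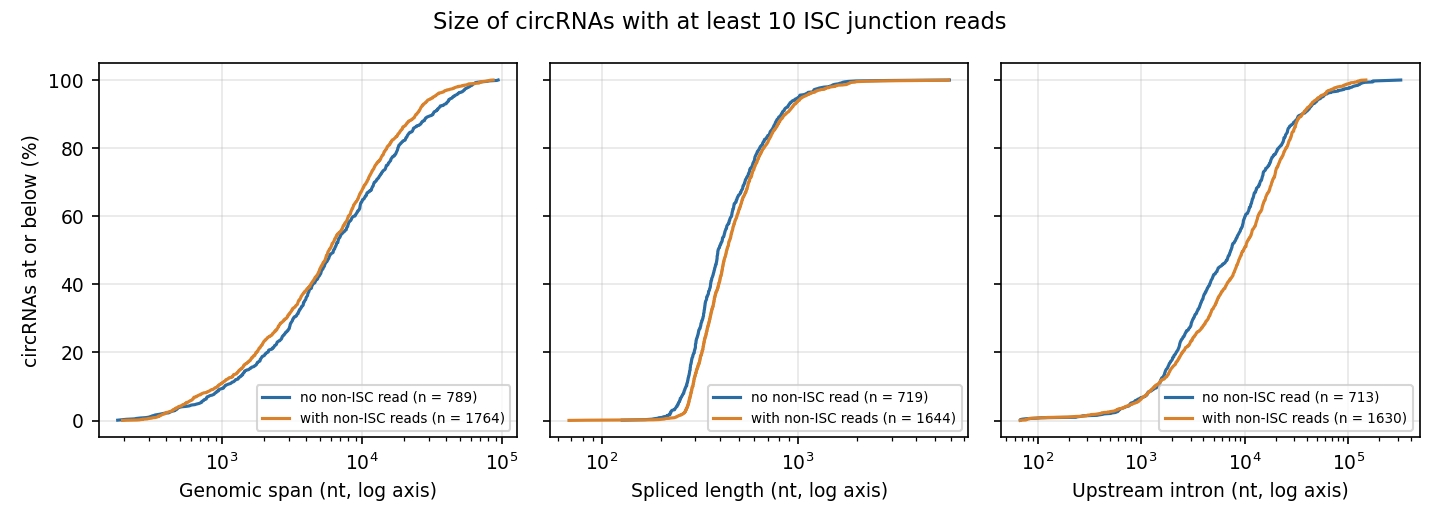
Distribution of genomic span, spliced length and upstream intron length, in nt on log axes, for members and for shared circRNAs with at least 10 ISC reads. Median spans are 6273 and 5820 nt and median spliced lengths 392 and 433.5 nt, and the distributions overlap.

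Members started at exon 2 in 28.7% (25.4 to 32.1), and shared circRNAs in 41.0% (38.6 to 43.4). From the lowest to the highest range of reads these shares were 26.8% and 37.2%, 33.3% and 39.0%, 29.2% and 44.9%, and 42.9% and 58.5%, lower for members in each. The annotated start codon lay in 12.6% of members and 19.2% of shared circRNAs, or 12.6% and 16.4% at 10 to 19 reads, 9.55% and 17.6% at 20 to 49, 21.7% and 22.2% at 50 to 99, and 30.8% and 32.0% at 100 or more. Single-exon rings were 17 members (2.36%) against 6.02% of shared circRNAs. The introns beside the ring had medians of 7378 nt upstream and 5203 nt downstream for members, against 9730.5 and 6982 nt. The order depended on read number. At 10 to 19 reads the medians were 6434 and 4588.5 nt against 8271 and 5568 nt. At 20 to 49 reads they were 9703.5 and 7128 nt against 8842 and 7137 nt, and at 50 to 99 reads 9839 and 10577.5 nt against 11581 and 8511 nt. At 100 reads or more, with 14 members, they were 20034.5 and 19075.5 nt against 16758 and 11893 nt. Base composition was close, with a median GC content of 46.3% and 47.0%.

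Members lay on all autosomes and on X, 20 chromosomes in all. Chromosome 2 had most, 75 of its 230 circRNAs with at least 10 reads. The share of members ran from 25.1% on chromosome 4 (42 of 167) to 34.5% on X (19 of 55). On each of the 20 chromosomes the interval included 30.9%. Intervals such as that of X (22.2 to 48.6) are too wide to show that the chromosomes are alike. Membership is set by the rule, so these shares only describe the set.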

How the data were processed

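The authors deposited 1 table per library, giving each circRNA's position, host gene, count, RPM and junction count. All values here are junction counts, the reads over the back-splice site per the file headers. The deposited RPM is the count per 1000000 reads of the library, and gives totals of 52636694 (ISC) and 72271995 (non-ISC) reads. Not given in the sources used here are the aligner, the caller and how reads were assigned to the deposited count. FastQC, Trimmomatic 0.36 and the build mm9 are named in the submitters' processing notes. Of the circRNAs of the respective libraries, 79.4% and 76.6% started on a GENCODE M21 exon start and 79.6% and 76.5% ended on an exon end. A shift of 1 nt left at most 0.344%, so coordinates are given as GRCm38, counted from 1. Sequences are from GENCODE M21 transcripts. Whether a missing entry stands for 0 reads is not stated, so no fold is given against it.

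The lists were joined on the circRNA name. Exon numbers follow a transcript with both ends on its exon ends. Transcripts of the named host came first, then protein-coding ones of the GENCODE basic set, other protein-coding ones and other basic ones. Ties went to the lowest name. Shares have exact (Clopper-Pearson) 95% intervals. Both mates of a pair can cross a junction, and rings of 1 host are counted separately, so intervals may be too narrow. The members and gene lists were chosen with earlier results of these data known. Named are the 15 most read members, hosts with at least 4 members, up to 4 hosts per list by member reads, and extremes of span, host reads and 0-junction entries; 1 host that this rule names is not reported here. Counting was tested on simulated data. Python 3.11.15, pandas 2.3.3, numpy 2.4.6, scipy 1.17.1 and matplotlib 3.10.9 were used.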

Additional observations from a re-analysis of the deposited data

How the results depend on the processing

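With 1 library per group, leaving out a replicate was not possible. No paired analysis was possible because the groups share only the number 1. Of 83 values under other settings, 46 moved by less than their interval or, for counts, by less than 1.5 times, and 37 moved more; the cause was not tested where the number of circRNAs did not show it.

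A minimum of 5, 20 or 50 reads in place of 10 gave 2463, 215 and 42 members, and the deposited count column in place of junction reads gave 6934. The share with a host seen in the other library was 73.4% at 5 reads, 80.5% at 50 and 64.8% by the count column. By coordinates in place of host name, 58.7% of all 789 members overlapped another ring with non-ISC reads. The share with a junction end used in the other library was 41.4%, 52.6% and 59.5% at 5, 20 and 50 reads, 53.0% with missing entries only and 23.3% by the count column. The median span was 7033 nt at 20 reads, 9413 nt at 50 and 4481 nt by the count column. The share with both ends on exon ends was 84.8% at 5 reads and 62.8% by the count column. The median spliced length was 426, 447 and 475 nt at 5 reads, 50 reads and by the count column.

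At 20 reads, where the share over all circRNAs was 17.8%, the lists stood at 33.3% (leukocyte), 24.0% (DNA replication and repair), 19.6% (chromatin), 4.88% (ubiquitin), 20.8% (RNA processing), 15.4% (membrane traffic) and 16.4% (kinase). Less moved were the T lineage (54.3%), cell division (34.5%), nuclear envelope (33.3%), transcription factors (31.0%) and widely abundant hosts (16.1%). Some of these shares rest on few members: 2 for ubiquitin, 3 for leukocyte, 4 for nuclear envelope and 6 for DNA replication and repair. By distinct hosts, where the share over all hosts was 40.1%, they stood at 75% (T lineage), 80.0% (leukocyte), 54.8% (cell division), 49.4% (chromatin), 44.3% (RNA processing), 45.3% (transcription factors), 44.9% (membrane traffic), 44.3% (kinase) and 100% (stromal and endothelial, 1 host). The enterocyte and goblet lists gave no value, nor did the myeloid and stem cell lists at 20 reads. Splice site letters in the introns were not examined.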
